A study of Mus musculus with 24 samples.

Results

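Interferon-stimulated genes are the genes that cells switch on after interferon binds its receptor. The 40 members described here were chosen by name, with their consensus peaks taken from the gene body extended by 10 kb on each side. Open chromatin was mapped by ATAC-seq, which relies on a transposase that inserts adapters where DNA is accessible, in splenic germinal center (GC) B cells sorted from mice 10 days after immunization with sheep red blood cells (SRBC). Of the 65483 consensus peaks, 129 belonged to the members, of which 37 were promoter peaks, lying within 1 kb of the member's start, and 92 were other peaks. Over all protein-coding genes the same rule gave 11684 promoter peaks and 40078 other peaks.

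All mice carried 1 copy of the Cg1Cre allele, a Cre recombinase that becomes active in GC B cells, and no Cre-negative mice were included. WT mice had Cg1Cre+/- alone (n = 4), C mice also had Crebbp fl/+ (n = 4), K mice had Kmt2d fl/+ (n = 4), and CK mice had both floxed alleles (n = 5). The question was how losing 1 copy of the acetyltransferase gene Crebbp, 1 copy of the methyltransferase gene Kmt2d, or both changed accessibility. Deletion is limited to cells in which Cre acted, and the wild-type copy of each gene remained. The mice were of C57BL/6J background, immunized at 8 to 12 weeks of age, and described as 8 weeks old and female where the libraries are shown, although sex was not part of the design. However, 9 of the 17 libraries held signal on the Y chromosome: 2 of 4 WT, 2 of 4 C, 3 of 4 K and 2 of 5 CK libraries. Values of the leading peaks are therefore also given within libraries with and without Y signal.

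The libraries held 17483706 to 21857738 fragments in peaks. The promoter peaks of 8 of 8 GC B and B cell markers were present, with a summed level of 579 to 637 CPM (counts scaled by library size) in WT, 549 to 600 in C, 588 to 600 in K and 540 to 591 in CK, and 0 of these genes were called different from WT. No peak marked the promoters of the 5 T cell genes or the 2 natural killer cell genes listed. Of the 4 macrophage genes only Adgre1 had one (1.15 to 2.58 CPM over all mice), and of the 3 plasmacytoid dendritic cell genes Siglech had none. The summed level of the 3 plasma cell genes was 138 to 152 CPM in WT, 143 to 148 in C, 145 to 163 in K and 143 to 156 in CK, with Sdc1 called higher in CK (log2FC 0.23, edgeR adjusted p = 0.00774). The 2 remaining plasmacytoid dendritic cell genes, Tcf4 and the member Bst2, summed to 103 to 105 CPM in WT, 99.6 to 109 in C, 108 to 119 in K and 106 to 114 in CK, with Tcf4 called higher in K (log2FC 0.19, edgeR adjusted p = 0.00849); the part of these shifts in the results was not tested. Of 5 peaks over Crebbp and 4 over Kmt2d, 0 were called in C, K or CK (at an unadjusted p under 0.05, 1 Crebbp peak in K and 1 in CK), and the floxed segments were not located, so these peaks do not check the genotype labels. In a bulk sample, a smaller share of cells with an open site and a weaker opening in each cell cannot be told apart.

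Type I interferons act through the kinases JAK1 and TYK2 on STAT2, which joins IRF9 in the complex ISGF3. ISGF3 and several IRF proteins bind the interferon-stimulated response element (ISRE), whereas interferon gamma acts at the gamma-activated site (GAS). The products include factors that amplify the response, sensors of viral RNA, and effectors that block viral entry, translation or genome copying. In B cells the pathway is known for tuning activation and antibody responses.

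The reference promoter windows, running from 250 bases before to 50 bases after each start, were searched for the ISRE core GAAANNGAAA (TTTCNNTTTC on the other strand) and for the GAS letters TTCNNNGAA. RefSeq windows (GRCm38.p6) were found for 32 of the 40 members, 41 windows in all, and not for Usp18, Dhx58, Zbp1, Oas2, Mx1, Mx2, Parp9 and Parp14. The ISRE core was present in 17 of 41 member windows (41.5%) and in 1131 of all 32851 windows (3.44%). The GAS letters were present in 10 of 41 (24.4%) and in 8.30% of all windows. In the central 300 bp of the peaks, the ISRE core was found in 14 of 37 member promoter peaks (37.8%, against 2.61% of all promoter peaks) and 7 of 92 other peaks (7.61%, against 5.29%). The GAS letters were found there in 6 of 37 (16.2%, against 5.62%) and 15 of 92 (16.3%, against 8.54%). These matches describe the letters and not binding.

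The windows below are those of the members whose promoter peak was called different in CK, and then of members holding an ISRE core, in the order of the test of the 4 genotypes. Each reads 5′ to 3′ along the gene's own strand in lower case with ISRE cores in capitals. They lie at chr12:26468965-26469264 (+) for Cmpk2, chr12:26456403-26456702 (-) for Rsad2, chr2:62646206-62646505 (-) for Ifih1, chr4:40239776-40240075 (-) for Ddx58, chr3:142620413-142620712 (+) for Gbp2, chr3:142530086-142530385 (+) for Gbp7, chr5:120907476-120907775 (-) for Oas1a and chr7:102565433-102565732 (-) for Trim21.
Cmpk2: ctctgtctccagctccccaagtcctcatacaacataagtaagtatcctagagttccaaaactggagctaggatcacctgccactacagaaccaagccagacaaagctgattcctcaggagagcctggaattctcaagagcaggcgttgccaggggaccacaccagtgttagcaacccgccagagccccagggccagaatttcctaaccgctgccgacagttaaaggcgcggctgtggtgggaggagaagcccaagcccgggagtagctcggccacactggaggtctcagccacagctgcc
Rsad2: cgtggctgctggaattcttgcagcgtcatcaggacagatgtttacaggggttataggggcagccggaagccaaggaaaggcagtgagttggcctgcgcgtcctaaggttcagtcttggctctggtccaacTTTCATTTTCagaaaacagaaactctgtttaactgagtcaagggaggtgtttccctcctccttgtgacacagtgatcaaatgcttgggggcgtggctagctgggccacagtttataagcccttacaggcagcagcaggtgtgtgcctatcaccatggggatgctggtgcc
Ifih1: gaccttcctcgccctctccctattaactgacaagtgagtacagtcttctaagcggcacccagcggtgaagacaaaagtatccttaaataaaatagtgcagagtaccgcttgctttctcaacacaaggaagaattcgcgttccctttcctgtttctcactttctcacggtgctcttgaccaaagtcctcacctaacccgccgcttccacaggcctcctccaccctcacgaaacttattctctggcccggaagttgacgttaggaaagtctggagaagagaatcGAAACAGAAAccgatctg
Ddx58: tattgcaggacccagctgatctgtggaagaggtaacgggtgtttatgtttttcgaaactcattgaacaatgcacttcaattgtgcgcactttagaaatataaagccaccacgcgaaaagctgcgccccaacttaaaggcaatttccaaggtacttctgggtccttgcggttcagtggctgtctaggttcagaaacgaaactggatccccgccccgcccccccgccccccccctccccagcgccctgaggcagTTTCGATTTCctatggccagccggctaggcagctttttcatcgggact
Gbp2: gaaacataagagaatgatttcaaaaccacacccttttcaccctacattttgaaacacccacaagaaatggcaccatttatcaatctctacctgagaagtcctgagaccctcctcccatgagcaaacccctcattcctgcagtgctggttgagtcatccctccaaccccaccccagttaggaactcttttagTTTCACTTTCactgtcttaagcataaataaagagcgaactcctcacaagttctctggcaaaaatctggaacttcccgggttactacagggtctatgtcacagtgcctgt
Gbp7: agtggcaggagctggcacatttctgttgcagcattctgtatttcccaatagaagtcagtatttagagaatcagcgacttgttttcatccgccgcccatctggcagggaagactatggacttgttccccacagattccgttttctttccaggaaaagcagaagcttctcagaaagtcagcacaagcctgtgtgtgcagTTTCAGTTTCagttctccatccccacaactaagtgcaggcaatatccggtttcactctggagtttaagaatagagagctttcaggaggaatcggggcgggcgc
Oas1a: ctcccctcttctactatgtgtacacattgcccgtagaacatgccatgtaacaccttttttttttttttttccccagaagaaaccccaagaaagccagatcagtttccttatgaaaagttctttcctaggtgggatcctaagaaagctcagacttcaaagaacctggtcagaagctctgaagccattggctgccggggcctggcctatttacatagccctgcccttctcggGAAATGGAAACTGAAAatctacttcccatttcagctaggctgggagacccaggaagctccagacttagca
Trim21: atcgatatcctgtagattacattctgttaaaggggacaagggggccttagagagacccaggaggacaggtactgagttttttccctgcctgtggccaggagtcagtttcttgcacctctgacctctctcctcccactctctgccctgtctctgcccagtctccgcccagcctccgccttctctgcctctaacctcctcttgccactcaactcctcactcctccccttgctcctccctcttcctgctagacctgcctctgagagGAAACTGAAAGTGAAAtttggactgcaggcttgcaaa
The Cmpk2 window held 0 cores. The core began 120 bases upstream of the start in Rsad2, 59 bases upstream in Gbp2 and 53 bases upstream in Gbp7, whose window also held the GAS letters at 2 places. It began at base 33 after the start in Ifih1 and at base 3 in Ddx58. Oas1a carried 2 overlapping cores beginning 20 and 14 bases upstream, and Trim21 carried 2 overlapping cores beginning at bases 14 and 20 after the start.

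Most interferon-stimulated genes had a promoter among the consensus peaks, which need not be open in every mouse. A promoter peak was found for 38 of the 40 members, with Parp9 and Dtx3l sharing 1 peak between their divergent starts. Ifi44 had no peak at all, and Mx1, an antiviral GTPase, had only 1 peak downstream of its gene (chr16:97443826-97444276, 0.796 to 1.72 CPM over the 17 mice). Of the 37 promoter peaks 36 spanned the start itself. The other peaks belonged to 35 members, with up to 7 each for Sp100 and Samhd1. They comprised 28 downstream, 25 intronic, 21 upstream and 18 exonic peaks, and 10 of the 92 were promoters of another gene.

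Levels between genes were compared as CPM per kb of promoter peak. The factors that drive the response were among the most accessible: Irf7, the regulator of type I interferon production, had the highest level in WT (59.9 ± 0.98 CPM per kb, SD, n = 4), followed by Stat2 (41.9 ± 1.04), the shared Parp9 and Dtx3l promoter (36.1), Irf1 (35.7 ± 2.35), Bst2 (35.0), Samhd1 (32.2), Oasl1 (31.4) and Irf9 (31.4). Zbp1 (29.9), Trim25 (26.0), Ifih1 (23.9), Gbp3 (22.1), Trim21 (20.9) and Usp18 (20.1) came next. Adar (19.1), Irgm1 (16.9), Ifit2 (16.9), Dhx58 (16.8), Isg20 (14.5), Parp14 (13.9), Igtp (12.6), Cmpk2 (11.5), Gbp2 (10.8) and Isg15 (10.5) lay in the middle of the order.

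Below 10 CPM per kb lay Gbp7 (9.44), Eif2ak2 (8.87), Sp100 (7.76), Ddx58 (6.68), Ifit1 (6.28), Oasl2 (5.71), Rsad2 (5.66), Mx2 (5.00), Xaf1 (4.62), Ifit3 (4.40), Oas2 (2.64), Oas3 (2.45) and Oas1a (0.963 ± 0.438). Of the 36 pairs of neighbours in this order, 28 overlapped between the 4 WT mice. The 8 steps without overlap were from Irf7 to Stat2, Stat2 to Parp9 and Dtx3l, Bst2 to Samhd1, Zbp1 to Trim25, Trim25 to Ifih1, Eif2ak2 to Sp100, Ifit3 to Oas2 and Oas3 to Oas1a. The members' promoter peaks had a median of 14.5 CPM per kb, against 22.5 over all promoter peaks, and a median GC content of 52.5%, against 57.1%. Their other peaks had a median of 4.97 CPM per kb, against 4.11.

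**Figure D1:**
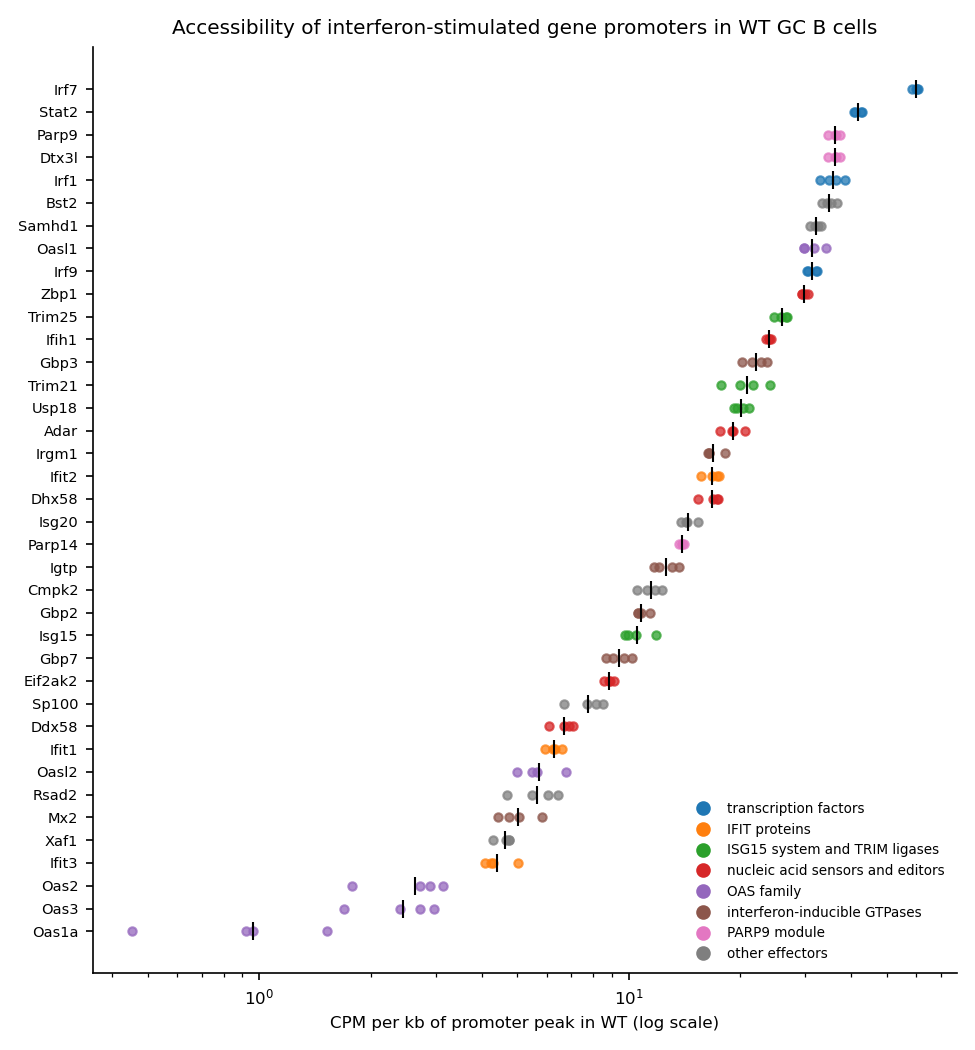
WT accessibility of the most accessible promoter peak of the 38 members that have one, in CPM per kb of peak on a log axis. Each point is 1 of 4 WT mice, bars are means and colours give the role; Irf7 is highest at 59.9 and Oas1a lowest at 0.963.

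Each genotype was then compared with WT by edgeR's quasi-likelihood test over all 65483 peaks, with no filter on low counts, and peaks with a Benjamini-Hochberg adjusted p under 0.01 were called. The comparisons share the same 4 WT mice. In C, 0 of 37 promoter and 0 of 92 other peaks were called, where 0.128% of all promoter peaks and 0.145% of all other peaks were, and DESeq2 also called 0 (0.275% of all peaks). Same-numbered WT and C mice, which also matched in Y signal, deviated together. With the replicate number as a block 1 member peak was called in C, the downstream Trim25 peak (0.325% of all peaks). With a Y covariate 0 member peaks were called in C (144 of all 65483 peaks). At an unadjusted p under 0.05, 6 promoter peaks passed (5 higher and 1 lower; 8.29% of all promoter peaks did) and 5 other peaks (1 higher and 4 lower; 8.83% of all other peaks did). In K, 0 promoter peaks were called (7 at an unadjusted p under 0.05, where 26.5% of all promoter peaks passed; 2.05% of all were called), and 2 other peaks were, both lower and both at Trim25 (1.32% of all other peaks were called and 0.943% were called lower). At an unadjusted p under 0.05, 14 other peaks passed in K, 2 higher and 12 lower, where 18.9% of all other peaks did.

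The largest number of calls was in CK. The promoters of Cmpk2, Rsad2 and Ifih1 rose, which is 3 of 37, where 10.5% of all promoter peaks were called and 9.81% were called higher. The 4 other peaks that fell lay at Irf1, Oasl1 and, for 2 of them, Trim25, which is 4 of 92, where 5.91% of all other peaks were called and 3.79% were called lower. At an unadjusted p under 0.05, 9 promoter peaks (6 higher and 3 lower; 35.1% of all promoter peaks) and 25 other peaks (9 higher and 16 lower; 27% of all other peaks) passed. DESeq2 called 5 member peaks in K, which were 3 Trim25 peaks, the Cmpk2 promoter and the peak upstream of Samhd1 (2.47% of all peaks), and 8 in CK, which were the 7 above and the Ddx58 promoter (7.94% of all peaks).

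The medians also lay close to those of all peaks. The median log2FC of the member promoter peaks was 0.01 in C, 0.04 in K and 0.05 in CK, beside -0.01, 0.06 and 0.06 over all promoter peaks. For the other peaks it was -0.03, -0.04 and -0.05, beside 0.01, -0.03 and -0.03. When counts were scaled within bins of GC content, the median in CK was 0.01 for member promoter peaks and -0.04 for all promoter peaks, so the sign of small promoter changes depends on this scaling. In 5 of 37 promoter peaks every CK mouse lay above every WT mouse (15% of all promoter peaks), and in 2 every CK mouse lay below (1.94%). For the other peaks these numbers were 4 of 92 above (4.66% of all other peaks) and 6 below (7.2%).

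**Figure D2:**
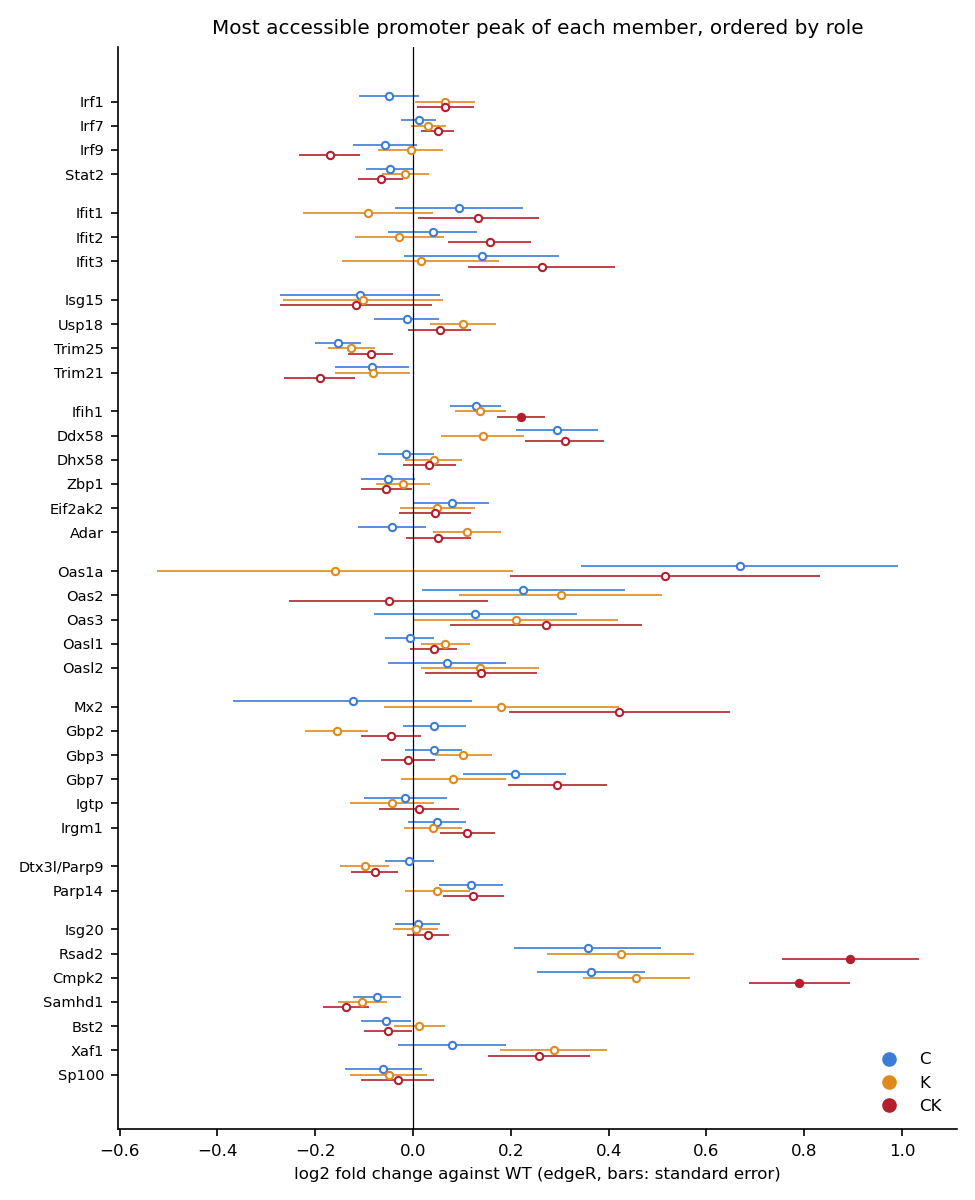
Change of the members' promoter peaks in C, K and CK against WT, as log2FC with bars of 1 SE, ordered by role; filled points passed an edgeR adjusted p of 0.01. In CK the filled points are Cmpk2 at 0.79, Rsad2 at 0.89 and Ifih1 at 0.22, and there are none in C or K.

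Across the 4 genotypes together, the promoters of Cmpk2 (edgeR adjusted p = 0.000144) and Rsad2 (0.000693) differed, which is 2 of 37, where 9.83% of all promoter peaks were called. Of the other peaks 5 of 92 were called, where 4.69% of all were: 2 at Trim25 (0.000849 and 0.00681), and 1 each at Irf1 (0.00607), Samhd1 (0.0062) and Oasl1 (0.00841). At an unadjusted p under 0.05, 9 promoter peaks and 20 other peaks passed, where 35.5% of all promoter peaks and 24.8% of all other peaks did.

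Counts were then summed per gene. No member had more than a single promoter peak, so its promoter sum repeats that peak's counts. Only the fit and the adjustment, over genes in place of peaks, differ. Of the 38 members with a promoter sum, 0 were called in C (0.131% of all genes with such a sum), 1 in K (2.8%) and 4 in CK (12.4%). The 1 called in K was Cmpk2 (log2FC 0.46, edgeR adjusted p = 0.00907; the call held in 9 of 25 alternatives), and the 4 called in CK were Cmpk2, Rsad2, Ifih1 and Ddx58, all higher. With GC bins the split in CK was 4 higher and 4 lower, the same 4 genes being higher and Bst2, Irf9, Samhd1 and Trim25 lower, and in K the 1 call was Trim25, lower, in place of Cmpk2. Of the 35 members with other peaks, 0 sums were called in C (0.152% of all genes), 1 in K (2.41%) and 1 in CK (10.4%), the 1 being Trim25, lower both times. With GC bins the split of the other-peak sums in CK was 3 higher, Cmpk2, Ifih1 and Rsad2, and 1 lower, Trim25, and the split of single peaks was 4 higher and 5 lower, beside 3 and 4.

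The largest called increases lay at Rsad2 and Cmpk2, which are neighbours on chromosome 12 with their starts facing each other. Cmpk2 encodes a mitochondrial nucleotide kinase, and Rsad2 encodes viperin, which turns CTP into a chain-terminating nucleotide. The Cmpk2 promoter peak (chr12:26468900-26470299) measured 16.5, 17.3, 15.7 and 14.7 CPM in the 4 WT mice, 19.5, 21.7, 22.6 and 18.9 in C, 17.6, 24.4, 27.6 and 18.8 in K, with 24.1, 30.5, 29.6, 27.7 and 27.1 in CK. Every C, K and CK mouse lay above every WT mouse, and the CK mice were the highest apart from K replicates 2 and 3, which reached into their range. The mean rose from 16.1 ± 1.10 (SD, n = 4) in WT to 27.8 ± 2.49 (n = 5) in CK, 1.73-fold (log2FC 0.79 ± 0.10, SE, edgeR adjusted p = 2.71e-05). In C the log2FC was 0.36 ± 0.11 (adjusted p = 0.205) and in K 0.46 ± 0.11 (adjusted p = 0.0156).

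The Rsad2 promoter peak (chr12:26456051-26456869), which spans the ISRE core shown above, measured 5.27, 4.96, 3.84 and 4.49 CPM in WT, 4.91, 5.77, 7.18 and 5.89 in C, 4.56, 6.91, 7.75 and 5.67 in K, with 7.29, 9.26, 9.42, 8.62 and 8.47 in CK. Only the CK mice were clear of the WT mice. The mean rose 1.86-fold, from 4.64 ± 0.621 (SD, n = 4) in WT to 8.61 ± 0.844 (n = 5) in CK (log2FC 0.89 ± 0.14, edgeR adjusted p = 0.000148). The log2FC was 0.36 ± 0.15 in C (adjusted p = 0.474) and 0.42 ± 0.15 in K (adjusted p = 0.0986). A small peak between both genes (chr12:26460021-26460347), holding 2 ISRE cores, measured 0.905, 1.62, 1.36 and 1.11 CPM in WT, 1.42, 1.40, 2.17 and 1.54 in C, 1.70, 2.04, 1.67 and 1.29 in K, with 1.62, 2.05, 2.51, 1.84 and 2.54 in CK. Its log2FC in CK was 0.75 ± 0.20 and missed the threshold (adjusted p = 0.0135).

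The difference between CK and C was tested on its own. At the Cmpk2 promoter it was 0.43 ± 0.10 (edgeR adjusted p = 0.0126) and at the Rsad2 promoter 0.54 ± 0.13 (adjusted p = 0.0178) when single peaks were adjusted over the whole table. As promoter sums, which hold the same counts adjusted over genes, both passed (Cmpk2 0.43, adjusted p = 0.00413, and Rsad2 0.54, adjusted p = 0.00722). That is 2 of 38, where 7.52% of all genes were called. With GC bins neither passed (Cmpk2 0.28, adjusted p = 0.0797; Rsad2 0.49, adjusted p = 0.0197), and over all alternatives the Rsad2 sum kept its call in 14 of 25 and the Cmpk2 sum in 21 of 25. The differences of CK from K were 0.33 ± 0.10 for Cmpk2 (adjusted p = 0.369) and 0.47 ± 0.13 for Rsad2 (adjusted p = 0.317). The departure of CK from additivity, that is its log2FC less those of C and K, was -0.03 ± 0.15 for Cmpk2 and 0.11 ± 0.20 for Rsad2.

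Among libraries with Y signal, the Cmpk2 promoter measured 16.5 to 17.3 CPM in 2 WT mice, 19.5 to 21.7 in 2 C mice, 17.6 to 27.6 in 3 K mice and 24.1 to 27.7 in 2 CK mice. Among those without it, the ranges were 14.7 to 15.7 in 2 WT mice, 18.9 to 22.6 in 2 C mice and 27.1 to 30.5 in 3 CK mice, and the 1 K mouse measured 24.4. The Rsad2 promoter with Y signal measured 4.96 to 5.27 CPM in WT, 4.91 to 5.77 in C, 4.56 to 7.75 in K and 7.29 to 8.62 in CK. Without it, the values were 3.84 to 4.49 in WT, 5.89 to 7.18 in C, 6.91 in K and 8.47 to 9.42 in CK. In both kinds of library every CK mouse lay above every WT mouse at both promoters. This follows from the same order over all mice and is no separate check.

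**Figure D3:**
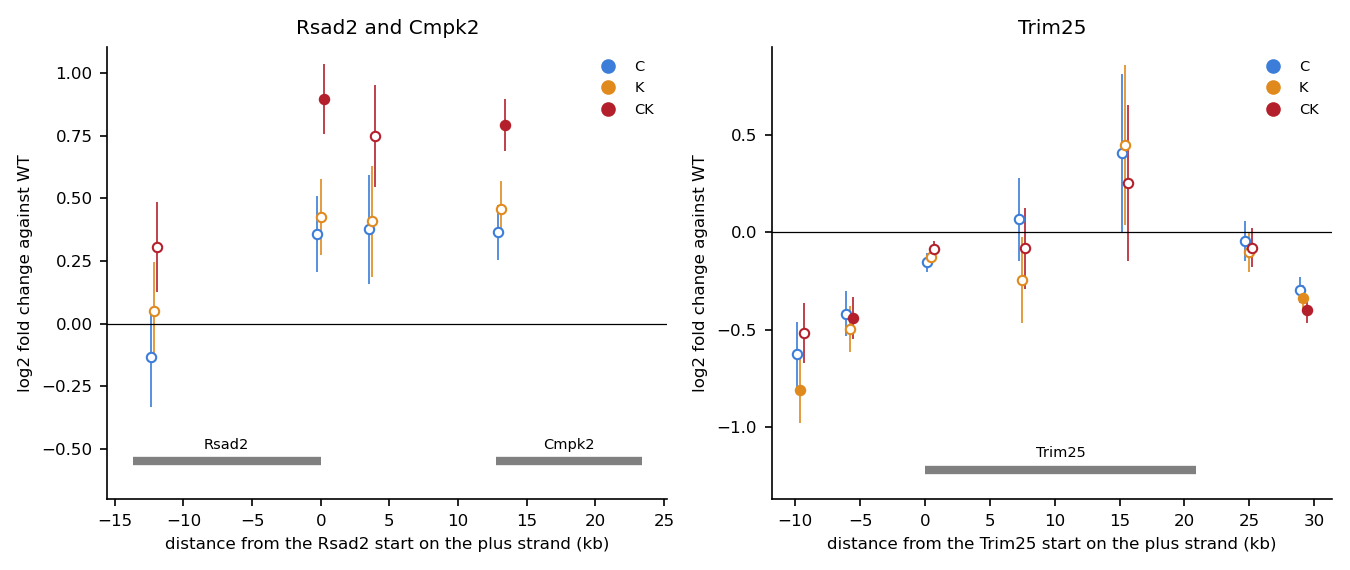
Change in C, K and CK against WT of each peak along the Rsad2 and Cmpk2 locus and the Trim25 locus, as log2FC with bars of 1 SE against distance in kb; grey bars are genes and filled points passed an edgeR adjusted p of 0.01. The CK changes at the Rsad2 (0.89) and Cmpk2 (0.79) promoters are upward, and those at 2 Trim25 peaks (-0.40 and -0.44) downward.

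Among sensors and editors of nucleic acids, edgeR called 1 of 6 promoter peaks in CK, where 10.5% of all promoter peaks were called, and DESeq2 called 2, Ifih1 and Ddx58. Ifih1 encodes MDA5, a sensor of long double-stranded RNA. Its promoter peak (chr2:62645421-62646822) measured 34.2, 33.6, 33.6 and 33.0 CPM in WT, 36.2, 36.1, 37.4 and 37.1 in C, 38.0, 37.8, 36.1 and 36.0 in K, with 42.1, 39.5, 40.6, 37.1 and 36.3 in CK. All mutant mice lay above all WT mice. The change was small: 1.17-fold in CK, from 33.6 ± 0.473 (SD, n = 4) to 39.1 ± 2.41 (n = 5), with a log2FC of 0.22 ± 0.05 (edgeR adjusted p = 0.00325). It was 0.13 ± 0.05 in C (adjusted p = 0.438) and 0.14 ± 0.05 in K (adjusted p = 0.12). With Y signal the values were 33.6 to 34.2 CPM in WT and 37.1 to 42.1 in CK, and without it 33.0 to 33.6 in WT and 36.3 to 40.6 in CK.

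Ddx58 encodes RIG-I, the sensor of short RNAs with a triphosphate end. Its promoter peak (chr4:40238476-40240521) measured 14.5, 13.7, 12.5 and 14.1 CPM in WT, 17.4, 15.2, 16.9 and 17.4 in C, 16.9, 15.01, 14.8 and 13.6 in K, with 17.3, 18.9, 16.5, 15.6 and 16.3 in CK. The C and CK mice were clear of the WT mice and the K mice overlapped them. The fold in CK was 1.24 (log2FC 0.31 ± 0.08) and lay just outside the threshold as a single peak (edgeR adjusted p = 0.0100). It passed as a promoter sum (0.31 ± 0.08, adjusted p = 0.00472), which holds the same counts adjusted over genes. In C it was 0.29 ± 0.08 (adjusted p = 0.165) and in K 0.14 ± 0.09 (adjusted p = 0.36).

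A peak over an exon of Ifih1 (chr2:62606129-62606813) measured 1.17, 1.10, 1.27 and 1.11 CPM in WT, 1.75, 1.31, 1.82 and 1.96 in C, 1.01, 1.76, 1.05 and 1.11 in K, with 1.87, 2.05, 2.65, 1.39 and 1.73 in CK. The C and CK mice lay above the WT mice, but the log2FC of 0.74 ± 0.21 in CK did not pass (edgeR adjusted p = 0.0156), nor did 0.55 ± 0.22 in C (adjusted p = 0.431). The other sensors differed little. Dhx58, which encodes LGP2, ranged from 46.7 to 57.1 CPM over the 17 mice at its promoter, with a log2FC of 0.03 ± 0.05 in CK. Zbp1, a sensor of Z-form nucleic acids, ranged from 41.1 to 49.8 CPM (-0.05 ± 0.05). Eif2ak2, the kinase PKR, ranged from 15.04 to 18.4 CPM (0.04 ± 0.07), and the RNA editor Adar from 24.5 to 32.3 CPM (0.05 ± 0.07).

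Of the 4 transcription factors, 0 had a called promoter peak in C, K or CK against WT, where 0.128%, 2.05% and 10.5% of all promoter peaks were called. Irf9 alone had an unadjusted p under 0.05 in CK, where 35.1% of all promoter peaks did. The Irf7 promoter measured 122, 120, 118 and 122 CPM in WT, 123, 121, 120 and 122 in C, 126, 125, 117 and 124 in K, with 128, 125, 123, 123 and 124 in CK. All CK mice lay above all WT mice, but by a log2FC of only 0.05 ± 0.03 (edgeR adjusted p = 0.355). The Irf9 promoter measured 33.2, 32.8, 34.9 and 34.7 CPM in WT, 31.4, 32.2, 31.9 and 34.9 in C, 31.3, 38.3, 31.1 and 34.5 in K, with 29.6, 27.5, 32.6, 28.9 and 31.9 in CK. Here every CK value was under every WT value and the test did not pass (-0.17 ± 0.06, adjusted p = 0.0673). Stat2 ranged from 41.3 to 46.8 CPM (-0.07 ± 0.05 in CK) and Irf1 from 74.3 to 93.0 CPM (0.07 ± 0.06 in CK), with all genotypes overlapping WT.

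Outside the factors' own promoters, all 9 other peaks of the 4 factors had a negative log2FC in CK, with a median of -0.16. The single other peak of Irf9 is the promoter of Rec8, whose values are given at the end. In C and in K, set against the same 4 WT mice, 8 of the 9 were negative, with medians of -0.08 and -0.12. Of all 40078 other peaks, 18924, 22073 and 21949 were negative in C, K and CK, with medians of 0.01, -0.03 and -0.03. In CK edgeR called 1 of the 9, where 5.91% of all were called. This peak lay downstream of Irf1 (chr11:53785521-53786046, 15507 bp from the start). It measured 2.29, 2.30, 3.00 and 2.93 CPM in WT, 2.55, 2.57, 2.07 and 2.50 in C, 2.28, 1.64, 2.25 and 1.57 in K, with 1.48, 1.13, 1.99, 1.49 and 0.979 in CK. The K and CK mice lay below the WT mice, whereas the C mice overlapped them. In CK it fell to 0.544 of the WT level (log2FC -0.88 ± 0.18, edgeR adjusted p = 0.00197). The log2FC was -0.12 ± 0.18 in C and -0.45 ± 0.19 in K (adjusted p = 0.898 and 0.164), and the difference of CK from C was -0.76 ± 0.18 (adjusted p = 0.0144). A second peak nearby (chr11:53783098-53784088) ranged from 15.3 to 19.4 CPM in WT and 12.9 to 16.7 in CK (-0.27 ± 0.09, adjusted p = 0.0407). An intronic Stat2 peak (chr10:128285796-128286212) ranged from 1.01 to 1.495 CPM in WT and 0.548 to 0.837 in CK (-0.86 ± 0.28, adjusted p = 0.0357).

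**Figure D4:**
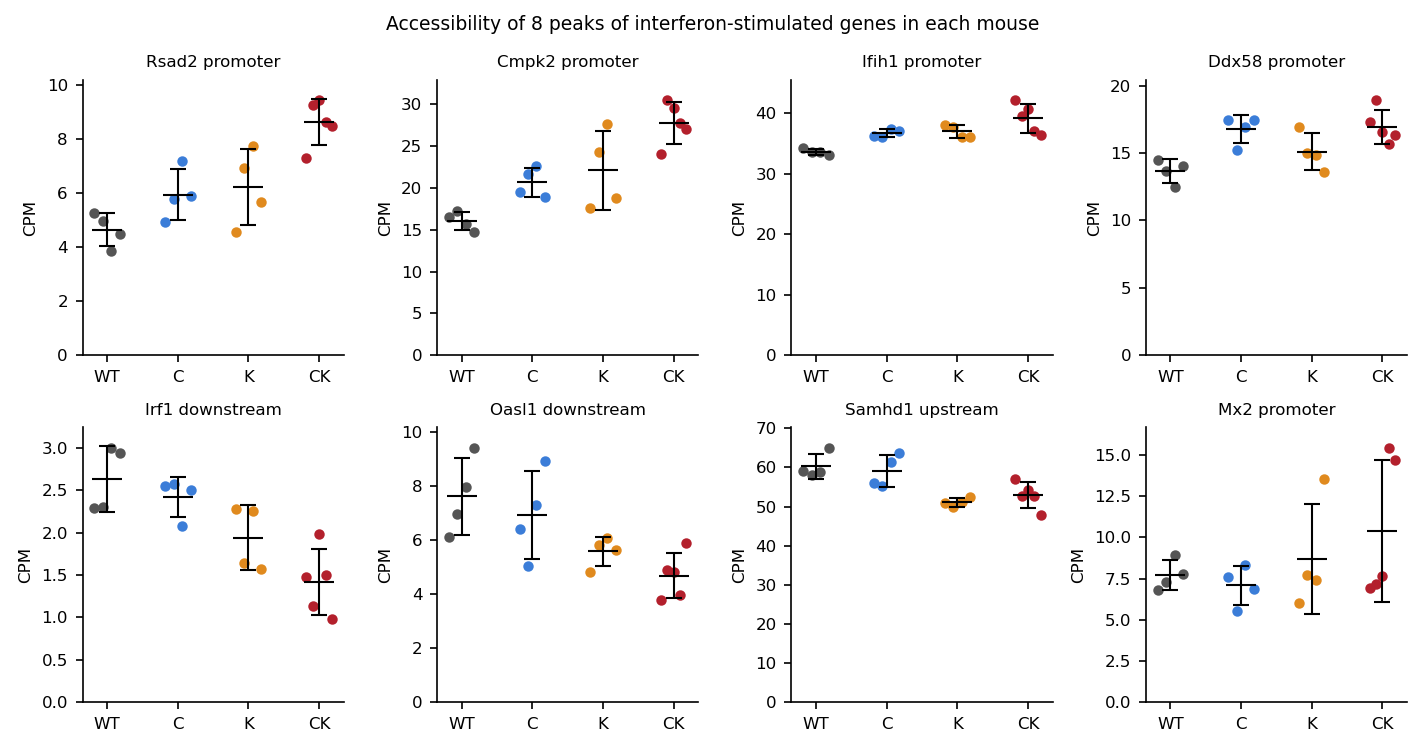
Accessibility in CPM of 8 member peaks in every mouse, by genotype, with points for mice and bars for the mean ± SD; axes start at 0. CK mice are above WT at Rsad2, Cmpk2, Ifih1 and Ddx58, below WT at the Irf1, Oasl1 and Samhd1 peaks, and split into 3 lower and 2 higher mice at Mx2.

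In the ISG15 system, Isg15 encodes a ubiquitin-like protein that is joined to other proteins and Usp18 encodes the protease that removes it. The ligase TRIM25 acts on RIG-I, and TRIM21 is a cytosolic antibody receptor. Of their 4 promoter peaks 0 were called in C, K or CK, where 0.128%, 2.05% and 10.5% of all promoter peaks were. Trim21 alone had an unadjusted p under 0.05 in CK, where 35.1% of all promoter peaks did. The Isg15 promoter measured 3.09, 3.03, 3.23 and 3.65 CPM in WT and 3.30, 2.32, 3.41, 2.39 and 3.57 in CK (log2FC -0.12 ± 0.16). Usp18 ranged from 21.4 to 26.8 CPM over all mice (0.05 ± 0.06 in CK), and Trim21 from 28.1 to 38.0 CPM in WT and 26.1 to 32.3 in CK (-0.19 ± 0.07, edgeR adjusted p = 0.077).

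Of the 11 other peaks of this group, 2 fell in K and 2 in CK, all at Trim25, where 0.943% and 3.79% of all other peaks were called lower. The downstream peak (chr11:89027684-89029392, 28308 bp from the start) measured 63.1, 56.1, 56.6 and 63.6 CPM in WT, 51.1, 45.2, 47.9 and 50.7 in C, 48.8, 42.1, 48.1 and 49.97 in K, with 44.9, 44.7, 39.2, 52.4 and 45.2 in CK. All mutant mice lay below all WT mice. The log2FC was -0.30 ± 0.07 in C (edgeR adjusted p = 0.0586, and 0.00348 with the replicate block), -0.34 ± 0.07 in K (adjusted p = 0.0058) and -0.40 ± 0.07 in CK (adjusted p = 0.000241), where the level was 0.757 of that in WT. The 3 mutant genotypes overlapped one another at this peak.

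An upstream Trim25 peak 5316 bp from the start (chr11:88993058-88994060) measured 7.45, 7.94, 8.15 and 7.97 CPM in WT, 5.38, 5.50, 5.86 and 6.90 in C, 6.21, 6.40, 4.19 and 5.58 in K, with 5.76, 5.87, 6.06, 5.58 and 5.76 in CK. Again all mutant mice lay below all WT mice, with a log2FC of -0.42 ± 0.12 in C (edgeR adjusted p = 0.143), -0.50 ± 0.12 in K (adjusted p = 0.0137) and -0.44 ± 0.11 in CK (adjusted p = 0.00785). This CK call was lost with the replicate block (adjusted p = 0.0111) and without any single WT or CK mouse, holding in 15 of 25 alternatives. The farther peak, 9233 bp from the start (chr11:88989398-88990143), measured 7.40, 8.67, 8.58 and 7.64 CPM in WT, 5.05, 6.77, 4.70 and 4.30 in C, 4.51, 4.30, 5.02 and 4.57 in K, with 5.27, 4.58, 5.35, 8.72 and 4.21 in CK. The C and K mice were below the WT mice, and in CK replicate 4 alone reached the WT range. It fell in K (-0.81 ± 0.17, adjusted p = 0.00639), and the log2FC was -0.63 ± 0.17 in C (adjusted p = 0.115) and -0.52 ± 0.16 in CK (adjusted p = 0.0253).

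Over its 6 other peaks together, Trim25 measured 95.9 ± 5.75 CPM in WT (SD, n = 4), 79.5 ± 2.38 in C, 76.1 ± 5.62 in K and 75.8 ± 7.66 in CK (n = 5). The sum fell in K (-0.33 ± 0.06, edgeR adjusted p = 0.00321) and CK (-0.34 ± 0.06, adjusted p = 0.000416), and in C the log2FC was -0.27 ± 0.06 (adjusted p = 0.0546, and 0.00357 with the replicate block). Its promoter peak had a log2FC of -0.15 in C, -0.13 in K and -0.09 in CK, none past the threshold. Trim25 lies in a stretch of chromosome 11 (85 to 90 Mb) that holds 11 of the peaks called in C over the whole table. Across the genome 6 windows of 5 Mb held at least 5 such peaks, and 16 member peaks of Trim25, Sp100 (chromosome 1, 85 to 90 Mb, 9 peaks) and Trim21 (chromosome 7, 100 to 105 Mb, 8 peaks) lay in them. Without those windows 0 member peaks were called in K. The part of the surrounding stretch in the Trim25 values was not tested.

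The OAS family makes short oligoadenylates that activate RNase L. None of its 5 promoter peaks was called in C, K or CK, where 0.128%, 2.05% and 10.5% of all promoter peaks were. At an unadjusted p under 0.05 there were 0 in CK, where 35.1% of all promoter peaks passed. Oas1a (0.209 to 0.961 CPM over all mice), Oas2 (1.04 to 2.63) and Oas3 (1.10 to 2.55) had almost closed promoters in every genotype, and small differences were not detectable at this depth. Oas1a had a log2FC of 0.67 ± 0.32 in C (edgeR adjusted p = 0.561) and 0.52 ± 0.32 in CK (adjusted p = 0.298). Reads of Oas1a may be shared with near-identical copies in its cluster. Oasl1, which is known to restrain Irf7 translation, ranged from 51.9 to 59.9 CPM at its promoter (0.04 ± 0.05 in CK), and Oasl2 from 6.26 to 8.83 (0.14 ± 0.11).

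Of the family's 12 other peaks 1 fell in CK, where 3.79% of all other peaks did, and it lay downstream of Oasl1 (chr5:114945008-114945922, 21768 bp from the start). It measured 6.12, 6.95, 7.97 and 9.41 CPM in WT, 6.42, 5.05, 7.28 and 8.92 in C, 4.83, 5.83, 6.07 and 5.63 in K, with 3.79, 4.90, 4.83, 3.98 and 5.88 in CK. The K and CK mice lay below the WT mice and the C mice overlapped them. The log2FC was -0.71 ± 0.15 in CK (edgeR adjusted p = 0.00258; 0.613 of the WT level), -0.44 ± 0.16 in K (adjusted p = 0.0994) and -0.14 ± 0.15 in C (adjusted p = 0.845). The peak between Oasl2 and Oasl1 (chr5:114915829-114917118) had a log2FC of -0.31 ± 0.11 in K and -0.28 ± 0.10 in CK (adjusted p = 0.0836 and 0.0572).

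The IFIT proteins bind viral RNA that lacks host cap marks. All 3 of their promoter peaks had a positive log2FC in CK, beside 8393 of all 11684 promoter peaks. Of the 3, 0 were called and 0 had an unadjusted p under 0.05, where 10.5% and 35.1% of all promoter peaks did. Ifit3 measured 6.60, 6.95, 8.11 and 6.87 CPM in WT, 6.70, 6.77, 9.40 and 8.71 in C, 6.10, 7.76, 7.07 and 7.94 in K, with 7.19, 10.2, 10.98, 5.73 and 8.82 in CK (0.26 ± 0.15, edgeR adjusted p = 0.255). Ifit1, whose promoter peak is also that of its neighbour Ifit1bl2, measured 6.65, 6.58, 6.94 and 6.26 CPM in WT and 7.29, 7.32, 9.18, 5.68 and 6.74 in CK (0.13 ± 0.12). Ifit2 ranged from 15.8 to 17.7 CPM in WT and 16.2 to 22.8 in CK (0.16 ± 0.09, adjusted p = 0.233). At all 3 promoters the SD was larger in CK than in WT, and so was that of C and of K. The CK values overlapped those of WT. How often this spread occurred over all promoter peaks was not counted.

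The interferon-inducible GTPases showed 0 calls over 6 promoter peaks and 9 other peaks in CK, where 10.5% of all promoter and 5.91% of all other peaks were called. At an unadjusted p under 0.05 they had 1 and 0, where 35.1% and 27% of all passed. Mx2, an antiviral GTPase annotated as a polymorphic pseudogene, varied most between mice of 1 genotype among these promoters: 6.81, 7.31, 8.95 and 7.75 CPM in WT, 7.60, 5.55, 8.34 and 6.90 in C, 6.05, 7.70, 7.43 and 13.6 in K, with 6.94, 7.16, 7.67, 15.4 and 14.7 in CK. K replicate 4 and CK replicates 4 and 5 stood well above all other mice, the rest of K and CK measured at most 7.70 CPM, and the log2FC in CK was 0.42 ± 0.23 (edgeR adjusted p = 0.222). Gbp7 ranged from 11.4 to 13.4 CPM in WT and 12.9 to 17.01 in CK (0.30 ± 0.10, adjusted p = 0.0475). Gbp2 had a log2FC of -0.16 ± 0.06 in K (adjusted p = 0.163) and -0.04 ± 0.06 in CK, Gbp3 of -0.01 ± 0.06 in CK, Igtp, whose promoter is shared with Irgm2, of 0.01 ± 0.08, and Irgm1 of 0.11 ± 0.06. Guanylate-binding and immunity-related GTPase genes lie in clusters of similar copies, so reads may be split between them.

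In the PARP9 module, an ADP-ribosyltransferase and its ubiquitin ligase partner Dtx3l, 0 of 2 promoter peaks and 0 of 8 other peaks were called in CK. Over all promoter and all other peaks, 10.5% and 5.91% were called. At an unadjusted p under 0.05 the module had 0 and 1, where 35.1% and 27% of all passed. The shared Parp9 and Dtx3l promoter ranged from 59.1 to 70.7 CPM over all mice (-0.08 ± 0.05 in CK) and Parp14 from 47.5 to 61.1 (0.12 ± 0.06).

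Of the remaining effectors, Samhd1, which hydrolyses the deoxynucleotides needed for viral genome copying, had no peak called against WT by edgeR, while DESeq2 called the peak below in K. The peak 2638 bp upstream of its start (chr2:157137903-157139626) measured 59.0, 58.1, 59.0 and 65.1 CPM in WT, 56.1, 55.4, 61.3 and 63.7 in C, 50.8, 49.8, 51.3 and 52.4 in K, with 57.1, 52.7, 54.2, 52.7 and 47.8 in CK. The K and CK mice lay below the WT mice and the C mice did not. The log2FC was -0.03 ± 0.05 in C, -0.24 ± 0.06 in K (edgeR adjusted p = 0.0129) and -0.19 ± 0.05 in CK (adjusted p = 0.0168), and the 4 genotypes differed when tested together. Its promoter ranged from 52.2 to 55.8 CPM in WT and 45.7 to 52.0 in CK, below every WT mouse (-0.14 ± 0.05, adjusted p = 0.0507). Xaf1, a pro-apoptotic factor, had a log2FC of 0.29 ± 0.11 in K (adjusted p = 0.125), with every K mouse above every WT mouse, and 0.26 ± 0.10 in CK (adjusted p = 0.0971). Bst2, the virion tether, had a log2FC of -0.05 ± 0.05 in CK, the exonuclease gene Isg20 of 0.03 ± 0.04 and the nuclear body gene Sp100 of -0.03 ± 0.07.

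Between the mutant genotypes 0 of 129 member peaks passed edgeR's adjusted p of 0.01. For CK against C, 15 had an unadjusted p under 0.05, where 21.2% of all peaks did and 1.68% were called, and DESeq2 called 2 member peaks, the Cmpk2 and Rsad2 promoters (2.91% of all peaks). For CK against K, 13 had an unadjusted p under 0.05, where 7.35% of all peaks did and 0.00916% were called, and DESeq2 called 0 (0.055% of all peaks). For K against C, 13 had an unadjusted p under 0.05, where 17.9% of all peaks did and 0.788% were called, and DESeq2 called 0 (1.59% of all peaks). The test for a departure of CK from additivity called 0 member peaks and 0.0107% of all peaks. At an unadjusted p under 0.05 there were 5 member peaks (3.73% of all peaks), all 5 positive, where all peaks had 1272 positive and 1172 negative. Of the 5, 1 was the Trim25 promoter and 3 were other Trim25 peaks, so most lay at a single locus. The farther upstream Trim25 peak, where CK was higher than additivity gives by 0.92 ± 0.23 on the log2 scale, had an adjusted p of 0.731. For other-peak sums of CK against C, 0 of 35 members were called, where 2.7% of all genes were.

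The genes that act before the interferon-stimulated genes were read from a separate list of 22 ligands, receptors, kinases, factors, sensing genes and inhibitors. Of the 18 with a promoter sum, 0 were called in any of the 6 comparisons of pairs (at an unadjusted p under 0.05, C, K and CK had 1, 2 and 3 against WT, where 8.65%, 26.5% and 34.7% of all genes did, and there were 2 for CK against C, 0 for CK against K and 4 for K against C, where 32.9%, 6.25% and 28.3% of all genes did). Of the 19 with other peaks, 0 sums were called in C, 1 fell in K and 3 fell in CK, and 0 rose, where 0.152%, 2.41% and 10.4% of all genes were called. At an unadjusted p under 0.05 there were 1, 8 and 8, where 9.7%, 24.6% and 34.3% of all genes passed. Ifngr1, the ligand-binding chain of the interferon gamma receptor, measured 17.8, 14.8, 15.4 and 16.2 CPM over its other peaks in WT, 15.4, 17.7, 16.3 and 17.6 in C, 11.7, 12.1, 12.3 and 12.6 in K, with 12.2, 12.8, 15.6, 11.9 and 11.005 in CK. K mice were clear of WT and C mice, and only CK replicate 3 reached the WT range. It fell in K (-0.40 ± 0.09, edgeR adjusted p = 0.0093) and in CK (-0.33 ± 0.08, adjusted p = 0.0072), and was lower in CK than in C (-0.40 ± 0.08, adjusted p = 0.0054) and in K than in C (-0.46 ± 0.09, adjusted p = 0.006).

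Jak1, the kinase shared by the type I and gamma receptors, measured 188, 190, 188 and 219 CPM over its 19 other peaks in WT, 184, 191, 181 and 196 in C, 178, 169, 187 and 194 in K, with 173, 175, 172, 176 and 171 in CK. It fell in CK (-0.18 ± 0.04, edgeR adjusted p = 0.0067), where all mice lay below all WT mice. Tlr7, an endosomal sensor of single-stranded RNA, measured 14.7, 15.9, 16.6 and 19.5 CPM in WT, 13.4, 14.7, 14.6 and 14.9 in C, 12.7, 15.1, 12.7 and 15.1 in K, with 11.03, 12.5, 14.1, 12.9 and 12.96 in CK. It too fell in CK (-0.39 ± 0.09, adjusted p = 0.0024), and no CK mouse reached the WT range. Among libraries with Y signal Tlr7 measured 14.7 and 15.9 CPM in WT and 11.03 and 12.9 in CK. Without Y signal the values were 16.6 and 19.5 in WT and 12.5, 14.1 and 12.96 in CK.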

How the data were processed

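ATAC-seq libraries were made from sorted splenic GC B cells of 17 mice (4 WT, 4 C, 4 K and 5 CK), 1 library each. Per the study's methods, the authors ran the nf-core pipeline for ATAC-seq, with mm10 as the genome; the submitters' notes name featureCounts (2.0.1, with a minimum fragment overlap of 0.2). The deposited values are raw counts of fragments per consensus peak, with no normalization, in 1 table of 65483 peaks. A consensus peak need not be open in every mouse. The remaining 7 libraries of the series, from sorted WT subsets, were not analysed here.

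Genes and starts were taken from GENCODE M21, and all 40 members matched. Peaks overlapping a member extended by 10 kb were counted, promoter peaks being those within 1 kb of the gene's start. Counts were tested with edgeR 4.0.16 in R 4.3.3 (TMM, quasi-likelihood F test, all 17 libraries in 1 fit, 1 coefficient per genotype, no filter), with p-values adjusted by Benjamini-Hochberg over all peaks, or over all genes for counts summed per gene, and a threshold of 0.01. CPM are counts scaled by library size after TMM. The script was tested on simulated data. The p-values set a difference between genotypes against the spread between mice. Same-numbered WT and C mice deviated together (4 of 4 correlations over 0.1, from 0.14 to 0.224), so blocked values stand beside results in C that they change. These pairs also matched in Y signal, so number and Y signal cannot be told apart in them. Other genotypes did not exceed 0.1 in every pair. Depth was alike between libraries (17483706 to 21857738 fragments in peaks), and precision falls with a peak's level.

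Some listed marker and pathway genes are not reported here by name. The members and lists were chosen with earlier results of these data known. Peaks named in full were those called in any comparison of pairs, then those with the lowest p over the 4 genotypes, up to 10 in each class, and values at other peaks with an unadjusted p under 0.05 were given beside them. Alternatives were DESeq2 1.42.0, its size factors, total counts, scaling in 20 bins of GC content, a replicate block, a Y covariate, other thresholds and windows, and leaving out each mouse. A covariate of Y signal limited to starts below 10 Mb was added after the data were seen.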

Additional observations from a re-analysis of the deposited data

Results flagged for a closer look

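In each genotype the mouse farthest from the rest was compared with its group's range for the 47 peaks described, in 188 groups, of which 8 held a mouse set apart from the others; chance alone sets apart about 1 in 20 groups. At promoters these were Zbp1 in C replicate 3 (46.3 CPM, the others 42.0 to 42.5), Gbp3 in CK replicate 1 (29.7, the others 31.5 to 32.0), Irgm1 in WT replicate 2 (40.2, the others 36.3 to 36.5) and Xaf1 in K replicate 2 (9.40, the others 7.84 to 8.06). Away from promoters they were the Irf1 downstream peak in C replicate 3 (2.07 CPM, the others 2.50 to 2.57), the Samhd1 upstream peak in WT replicate 4 (65.1, the others 58.1 to 59.0), the farther upstream Trim25 peak in CK replicate 4 (8.72, the others 4.21 to 5.35) and the Ifih1 exon peak in K replicate 2 (1.76, the others 1.01 to 1.11). The Xaf1 and Ifih1 values belong to the same K mouse.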

How the results depend on the processing

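Of 700 alternative values of called-member counts, median log2FC and motif shares, 604 stayed near the reported value. Near meant within 1.5 times for counts, within the SD of mouse medians for medians, and within the share's confidence interval for motifs. Of 449 alternative values for 18 named calls, each a feature in a given comparison, 377 kept their call, 72 lost it and 0 reversed. The CK calls at the Rsad2 and Cmpk2 promoters and the downstream Trim25 peak held in 25 of 25 alternatives. The Ifih1 promoter lost its call in 5 of 25 (GC bins, adjusted p = 0.0102; only the genotypes compared; without WT replicate 3, WT replicate 4 or CK replicate 1). The Irf1 and Oasl1 peaks lost theirs without WT replicate 3 or 4. The upstream Trim25 call in CK held in 15 of 25, the Trim25 calls in K in 18 and 19 of 25, the Cmpk2 promoter sum in K in 9 of 25, and the CK against C sums of Rsad2 and Cmpk2 in 14 and 21 of 25.

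Counts of called member peaks in C (0) became 1 with the replicate block and 1 when only the genotypes compared were fitted. In K (2) they became 4 with the block, 5 with DESeq2, 5 at an adjusted p under 0.05, 1 with a fold of 1.5, 0 with no flank, 5 with 25 kb and 0 without the 5 Mb windows rich in peaks called in C; in CK (7), 17 at 0.05, 4 with the fold, 3 with no flank and 11 with 25 kb. For CK against C (0) they became 3 with the block, 2 with the Y covariate, 1 with only the genotypes compared, 2 with DESeq2, 5 at 0.05 and 2 with 25 kb; for K against C (0), 1 with the block, 1 at 0.05 and 2 with 25 kb; over the 4 genotypes (7), 12 at 0.05. Promoter sums in K (1) became 0 with total counts, only the genotypes compared or the fold; in CK (4), 8 with GC bins, 7 at 0.05 and 2 with the fold; for CK against C (2), 1 with total counts and 0 with GC bins or the fold; for K against C (0), 1 at 0.05. Other-peak sums in C (0) became 1 with the block or only the genotypes compared; in K (1), 2 at 0.05 and 0 with the fold; in CK (1), 4 with GC bins, 3 with the block, 4 with the Y covariate, 2 with DESeq2, 5 at 0.05 and 0 with the fold; for CK against C (0), 1 at 0.05. Calls over all peaks moved too: in C 105 became 213 with the block and 217 with only the genotypes compared. In K 966 became 2146 with the block and 1617 with DESeq2, and in CK 4478 became 6607 and 5201. The causes of the changed member counts were not tested, beyond the fewer or additional peaks that a window or threshold itself brings.

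Leaving out 1 mouse gave 0 to 3 member peaks in K (1 without WT replicate 1 or 2 or K replicate 1, 0 without WT replicate 3 or 4 or K replicate 2 or 3), 3 to 9 in CK (3 without WT replicate 3 or 4), 0 to 1 for CK against C (1 without K replicate 1 or 3 or CK replicate 3) and 3 to 7 over the 4 genotypes (3 without WT replicate 3 or 4, 4 without C replicate 1, 3 or 4 or CK replicate 1 or 4). Promoter sums gave 0 to 1 in K (0 without any single WT or C mouse, K replicate 2 or 3 or CK replicate 3, 4 or 5), 3 to 5 in CK and 0 to 2 for CK against C (0 without C replicate 1, 2 or 4, 1 without K replicate 2 or any CK mouse). Other-peak sums gave 0 to 1 in K (0 without WT replicate 1 or 4 or K replicate 1 or 2) and 1 to 3 in CK (2 without WT replicate 2, C replicate 3 or 4 or K replicate 4, 3 without CK replicate 1 or 4). The median log2FC of member promoter peaks ranged from 0.0026 to 0.0382 in C, -0.0092 (without K replicate 2) to 0.0528 in K and 0.0306 to 0.0582 in CK, and of other peaks from -0.0452 to -0.0102, -0.0593 to -0.0297 and -0.0578 to -0.024.

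Over 24 same-number pairs of mice the correlation of deviations ran from -0.0933 to 0.224, 12 exceeded 0.1 and 9 were the highest for that mouse. All 4 pairs of WT and C mice and all 6 pairs of replicate 1 mice exceeded 0.1, and in the other pairs of genotypes 1 to 3 of 4 did. Every pair over 0.1 matched in Y signal, present in both mice or in neither, and no pair differing in it exceeded 0.1. The WT and CK pair of replicate 3 matched too and measured 0.0539. The labels do not say what a number shares, and the parts of number and Y signal were not tested apart. DESeq2's test of the 4 genotypes was not run, and the fit of only the genotypes compared has no such test. Peaks of a few CPM or less, such as the Oas1a, Oas2 and Oas3 promoters, limit what could be detected.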

Other observations

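The peak downstream of Irf9 that is the promoter of Rec8 (chr14:55617667-55619083) was chosen after its values were seen. It measured 9.95, 7.62, 10.2 and 10.9 CPM in WT, 10.3, 5.46, 11.1 and 9.82 in C, 10.2, 4.13, 2.72 and 9.18 in K, with 10.8, 4.25, 5.30, 3.04 and 2.77 in CK. K replicates 2 and 3 and CK replicates 2 to 5 measured at most 5.30 CPM, whereas C replicate 2 measured 5.46 and every other mouse at least 7.62. The log2FC was -0.55 in K (edgeR adjusted p = 0.366) and -0.87 in CK (adjusted p = 0.0638), and neither passed. At the Mx2 promoter, K replicate 4 and CK replicates 4 and 5 were the high mice, so the mice set apart were partly different at both peaks.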
